A study of Mus musculus with 2 samples.

Results

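Lefty2-positive and Lefty2-zero cells are the ends of a spread that existed inside a single DMSO-treated culture of mouse embryonic stem cells. Each DMSO cell that was deep enough was thinned at random to the same number of unique molecular identifiers (UMIs, the tags that mark single captured transcripts), a depth below that of nearly all cells. Cells with 2 or more Lefty2 UMIs formed the positive side, which held 194 of 764 thinned cells (25.4%, exact 95% interval 22.3 to 28.6). Cells with 0 Lefty2 UMIs formed the zero side, which held 468 cells (61.3%, 57.7 to 64.7). The 102 cells with 1 Lefty2 UMI (13.4%) belonged to neither side. Another 47 of the 811 DMSO cells were too shallow to be thinned, and the whole series has 1553 cells.

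The series holds single-cell RNA libraries of the established male line E14, grown without feeders on gelatin in ESGRO-2i medium, with its strain labelled C57BL/6. Both cultures were kept for 24 h in 2i/LIF, a medium that blocks MEK and GSK3 and adds leukaemia inhibitory factor, with the solvent DMSO or with Idoxuridine, a halogenated thymidine analogue tested as a noise enhancer (10 µM per the treatment label, while a protocol field gives the same figure in mM). There was 1 library per treatment, made with 10x Genomics 3′ V2 chemistry. The DMSO library held 40818344 UMIs with a median of 44502 per cell (14814 to 136231), and the Idoxuridine library held 30454626 with a median of 37425 (9295 to 130052). Only 2 cell barcodes occurred in both. Cells of a library are not replicates, so every difference below describes these cells, with no p-value. Levels are UMIs of a gene per 1000000 UMIs of a side (CPM). A range in parentheses is a 95% interval that covers counting error alone. For levels and ratios it leaves out the spread between cells and between cultures.

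Lefty2 and its neighbour Lefty1 encode secreted proteins of the TGF-beta superfamily that block Nodal. Nodal binds activin receptors together with the co-receptor Tdgf1 (Cripto), and the signal passes through Smad2, Smad3, Smad4 and Foxh1 to switch on genes that include Nodal and the Lefty genes themselves. The Lefty proteins thus close a negative feedback loop, which sets left-right asymmetry and limits mesendoderm in the embryo and is active at a low level in cultured stem cells.

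The Lefty genes are close copies, so it matters whether their transcripts can be told apart. Their coding sequences were the same at 1017 of 1107 positions (91.9%), and 281 of 1058 windows of 50 bases in the coding sequence of Lefty2 also occurred in Lefty1. Reads of 3′ chemistry come mostly from the transcript end, however, and there 0 of 451 windows of 50 bases in the last 500 bases of Lefty2 occurred in Lefty1. For Lefty1, 11 of 451 such windows occurred in Lefty2.

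Lefty2 was unevenly spread over the DMSO cells. Its thinned mean was 2.09 UMIs per cell and its variance was 11.6 times that mean. The positive cells carried between 2 and 34 Lefty2 UMIs with a median of 5 (quartiles 3 and 10), and together they held 93.6% of all thinned Lefty2 UMIs. The 66 cells with 8 or more held 64.9%. These counts chose the sides and are a description only.

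**Figure D1:**
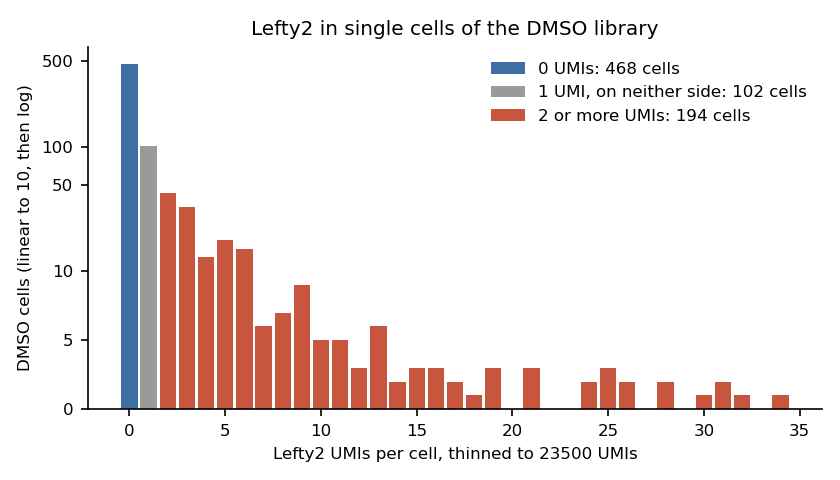
Number of DMSO cells (vertical axis, linear to 10 and logarithmic above) by their Lefty2 UMIs after thinning all cells to the same depth (horizontal axis). The 468 cells at 0 form the zero side (blue), the 102 cells at 1 belong to neither side (grey), and the 194 cells at 2 or more form the positive side (red), with a tail that reaches 34.

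The UMIs that thinning did not draw give a count of Lefty2 in the same cells that the rule did not use. In those left-out UMIs Lefty2 stood at 282 CPM (269 to 296) in positive cells, 42.3 CPM (35.8 to 49.7) in the cells with 1 UMI and 11.2 CPM (9.40 to 13.2) in zero cells, a log2 ratio of positive over zero of 4.66 (4.40 to 4.92). A Lefty2 UMI was left out in 162 of 194 positive cells (83.5%), 52 of 102 cells with 1 UMI (51.0%) and 87 of 468 zero cells (18.6%). The zero side therefore means no Lefty2 UMI at the thinned depth, not a cell without Lefty2. No cell type that should lack Lefty2 is present in the library, so the share that free RNA would give was not measured.

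Both sides had the markers of embryonic stem cells at close levels. Pou5f1 (Oct4), the central pluripotency factor, was at 2068 CPM in positive and 2001 CPM in zero cells. The log2 ratios of the other stem cell markers were 0.08 for Sox2, 0.13 for Nanog, -0.03 for Sall4, -0.12 for Zfp42 (Rex1) and 0.16 for Esrrb. Pou5f1 and Zfp42 had a UMI in every cell of both sides. Of the markers listed for other cell types, at least 200 UMIs were reached by 4 of 18 for primitive endoderm, 2 of 11 for trophectoderm, 0 of 13 for mesendoderm, 2 of 13 for neuroectoderm, 3 of 16 for fibroblasts and 1 of 15 for germline, and none of these differed by 0.5 log2 or more. Over the members with at least 50 UMIs, the median ratio was -0.30 for 7 primitive endoderm genes (-0.97 to -0.05), 0.34 for 5 neuroectoderm genes (0.18 to 0.58), 0.15 for 5 trophectoderm genes (-1.98 to 0.32), 0.12 for 3 fibroblast genes (0.01 to 0.14) and 0.08 for 4 germline genes (-1.02 to 1.21), with the range of the members in parentheses. The part of such genes in the results below was not tested. The sides also resembled each other in quality, with medians of 5134.5 and 5148 detected genes, 2.51% and 2.57% mitochondrial UMIs and 12.5% and 12.6% ribosomal protein UMIs in positive and zero cells. Before thinning the positive cells were somewhat deeper, with a median of 48070.5 UMIs against 43950.

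Lefty1, the gene most like Lefty2 in sequence, had the highest ratio of the genes with at least 200 UMIs over both sides. The positive side held 462 Lefty1 UMIs and the zero side 51, which is 101 CPM against 4.64 CPM and a log2 ratio of 4.45 (4.03 to 4.90). A Lefty1 UMI was present in 100 of 194 positive cells (51.5%), in 10 of 102 cells with 1 Lefty2 UMI (9.80%) and in 30 of 468 zero cells (6.41%). The highest cell had 43 Lefty1 UMIs on the positive side and 9 on the zero side, so the sides overlapped at the low end.

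The relation between the copies was lopsided. Of 77 cells with 2 or more Lefty1 UMIs, 64 were Lefty2-positive (83.1%, 72.9 to 90.7), 5 had 1 Lefty2 UMI and 8 had none. Conversely, 94 of the 194 Lefty2-positive cells had no Lefty1 UMI. Lefty1 had fewer UMIs than Lefty2, which bears on both shares. Across all 764 cells Lefty1 had the highest Spearman rank correlation with Lefty2 (rho = 0.48) among 7453 genes with a mean of at least 0.25 UMI per cell. Cells of a library share depth and handling, and rho is given as a description.

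Lefty2 and Lefty1 lie on chromosome 1 of GRCm38 (mm10), both on the plus strand, with starts 41914 bases apart. Lefty2 spans chr1:180893108-180899103 and Lefty1 chr1:180935022-180938400, each with 4 exons in its main transcript. Among the positive cells alone, where the split itself no longer acts, Lefty1 still had a rho of 0.32 with Lefty2.

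Most other genes reported here around Lefty2 had close levels on both sides, and not every gene of the region is reported. Sde2, the nearest gene before Lefty2, was at 95.4 CPM in positive and 95.9 CPM in zero cells. The next gene after Lefty1, Tmem63a, had only 21 UMIs in positive and 11 in zero cells, a log2 ratio of 2.20 (1.09 to 3.40), and its ratio in the Idoxuridine library was -0.25 (-2.17 to 1.17). In all, 9 such genes within 500 kb of Lefty2 with at least 50 UMIs, Sde2 included, had log2 ratios between -0.33 and 0.19 with a median of -0.01, and 0 of them passed 0.5. They included Parp1, a DNA repair enzyme (0.10), and H3f3a, a histone gene (0.09). Itpkb, a kinase gene at the edge of the window and below 50 UMIs, had 7 UMIs in positive and 1 in zero cells.

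**Figure D2:**
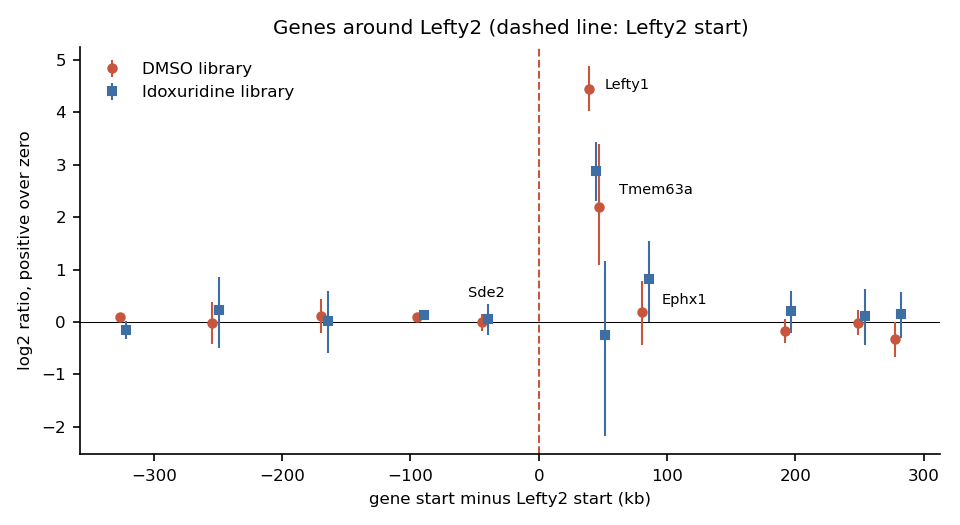
Log2 ratio of Lefty2-positive over Lefty2-zero cells (vertical axis, bars are 95% counting intervals) for the genes near Lefty2 that are reported here and had at least 20 DMSO UMIs, by the distance of their start from the Lefty2 start in kb (horizontal axis), in the DMSO library (red) and under the same rule in the Idoxuridine library (blue), with the points of a gene shifted slightly apart. Lefty1 (4.45 in DMSO) stands above the other plotted genes in both libraries, and Tmem63a is high only in DMSO, on few UMIs.

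Across all genes the sides were alike. Of 7000 genes other than Lefty2 with at least 200 UMIs over both sides, 85.7% lay within 0.25 log2, and the median ratio was -0.02. A gene was counted as higher or lower where its ratio was at least 0.5 log2 and the Poisson intervals of its CPM values did not overlap. On that rule 29 genes (0.414%) were higher and 70 genes (1%) were lower in the positive cells. At 0.25 log2 these counts were 100 (1.43%) and 215 (3.07%).

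**Figure D3:**
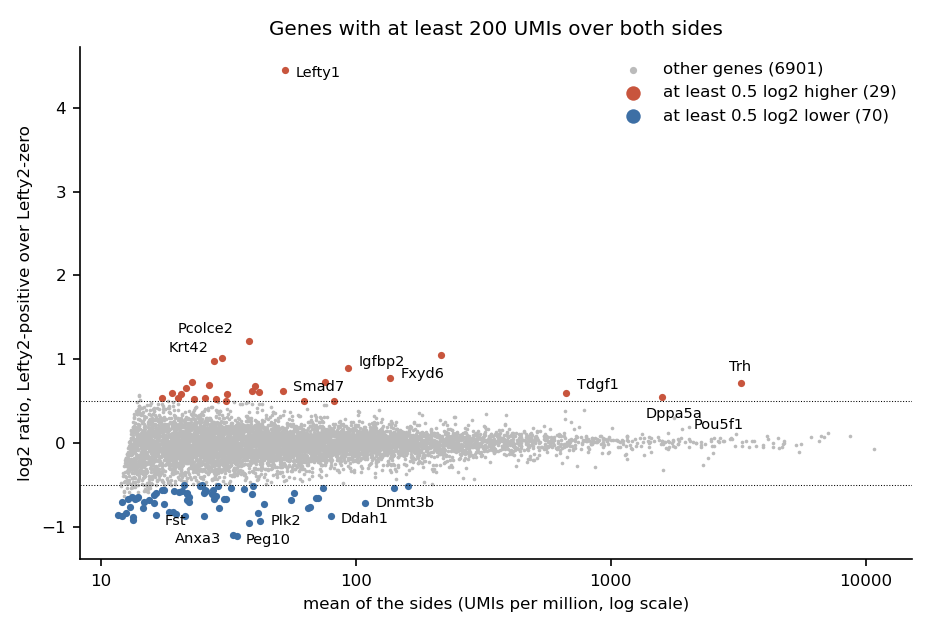
Log2 ratio of positive over zero cells (vertical axis) against the mean CPM of the sides (horizontal axis, log scale) for 7000 genes with at least 200 UMIs. Red points mark the 29 genes at least 0.5 log2 higher and blue points the 70 at least 0.5 log2 lower with separate counting intervals; Lefty1 (4.45) stands apart, and Trh, Tdgf1 and Dppa5a are the abundant genes above the dotted line at 0.5.

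Because a random draw both chose the cells and supplied the counts, the same genes were looked at in the left-out UMIs and in draws with other seeds. Of the 29 higher genes, 28 were also higher in the left-out UMIs and 17 passed the whole rule there, and 16 passed it in the first draw, the left-out UMIs and both other draws. Of the 70 lower genes, 66 were also lower in the left-out UMIs, 23 passed there and 17 passed throughout. Over all 7000 genes, 42.3% were higher in the left-out UMIs. The left-out UMIs come from the same cells, and the deeper cells weigh more in them. The 16 higher genes included Lefty1, Pcolce2, Krt42, Aplp1, Igfbp2, Fxyd6, Sfrp1, Smarcd3, Trh, Plekha2, Dusp1, Smad7, Tdgf1, Dppa5a and Fam25c.

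Of the 34 genes listed for the Nodal pathway, 25 had at least 50 UMIs and their median log2 ratio was -0.04, beside -0.02 for all 9794 genes at that depth. Among the 17 with at least 200 UMIs, Lefty1, Tdgf1, Smad7 and Bambi were at least 0.5 log2 higher and none was lower. Of all 7000 genes with at least 200 UMIs, 0.414% were higher and 1% lower. In all, 4 listed genes (Gdf1, Acvr1c, Tgfbr2 and Cer1) had no UMI on either side.

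Among the ligands and co-receptors, the difference lay with Tdgf1. This co-receptor, a membrane-anchored protein that Nodal needs to engage its receptors, was at 808 CPM in positive and 534 CPM in zero cells, a log2 ratio of 0.60 (0.54 to 0.66). A positive cell had a median of 19 Tdgf1 UMIs (range 4 to 40) and a zero cell a median of 12 (range 0 to 39), so the sides overlapped over most of their range. In positive cells 155 of 194 (79.9%) had more than 12, against 221 of 468 zero cells (47.2%). Nodal itself was at 84.5 CPM against 76.4 CPM, a log2 ratio of 0.14 (-0.03 to 0.32), and had a median of 2 UMIs in positive and 1 in zero cells. Gdf3, a related ligand, was at 547 CPM against 562 CPM (-0.04), and the convertases Furin and Pcsk6, which cleave Nodal precursors, had ratios of -0.14 and 0.07 on few UMIs. Cfc1, the other co-receptor of this family, had 2 UMIs on the positive side and 0 on the zero side.

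Taken singly, no receptor or transducer differed beyond its counting interval. The 4 receptors with at least 50 UMIs had a median of -0.52. The summed UMIs of the receptor list gave -0.23 (-0.45 to -0.007), and those of the transducer list -0.05 (-0.18 to 0.08). The type II receptor Acvr2b, the receptor with the most UMIs, was at 37.9 CPM in positive and 41.2 CPM in zero cells (-0.12, -0.38 to 0.14). The receptors Acvr1b, Acvr2a and Tgfbr1 had log2 ratios of -0.67, -0.64 and -0.41, each on 12 to 30 UMIs in positive cells and with intervals that included 0. The transducers Smad2, Smad3 and Smad4 were at -0.13, -0.10 and -0.04, and Foxh1, the DNA-binding partner of the Smads, was at 0.15. The co-factors Wwtr1 (Taz) and Yap1 were at 0.14 and -0.30.

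Several other inhibitors of the pathway were also higher in the positive cells. Smad7, which targets the receptors for degradation, was at 62.5 CPM against 40.8 CPM, a log2 ratio of 0.61 (0.40 to 0.83), with a UMI in 69.6% of positive and 56.4% of zero cells. Bambi, a decoy receptor, was at 30.3 CPM against 20.8 CPM (0.54, 0.22 to 0.85), but only 0.15 with seed 2. Skil (SnoN), a co-repressor that binds Smads, had 53 UMIs against 57, which is 11.6 CPM against 5.18 CPM (1.17, 0.60 to 1.73). It was below the 200 UMIs of the count, and in the left-out UMIs its ratio was 0.52 (-0.11 to 1.14). Its relative Ski was at 0.45 (0.04 to 0.85). Dact2, Drap1, Nomo1 and Ppm1a, which act on receptors, Foxh1, Nodal or phosphorylated Smads, lay between -0.13 and 0.10. The median of the 9 inhibitors with at least 50 UMIs was 0.45.

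The target genes reported here were mostly thinly counted. Pmepa1, a feedback inhibitor of TGF-beta signals, had 19 against 22 UMIs (1.06, 0.09 to 2.01). Among the mesendoderm targets, Eomes was at 0.32 (-0.35 to 0.95), Gsc at -0.19 (-0.81 to 0.40) and Mixl1 at 4 against 8 UMIs. The 8 targets with at least 50 UMIs had a median of 0.46, and 6 of these 8 (Lefty1, Smad7, Skil, Tdgf1, Nodal and Gdf3) are also on the lists above.

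**Figure D4:**
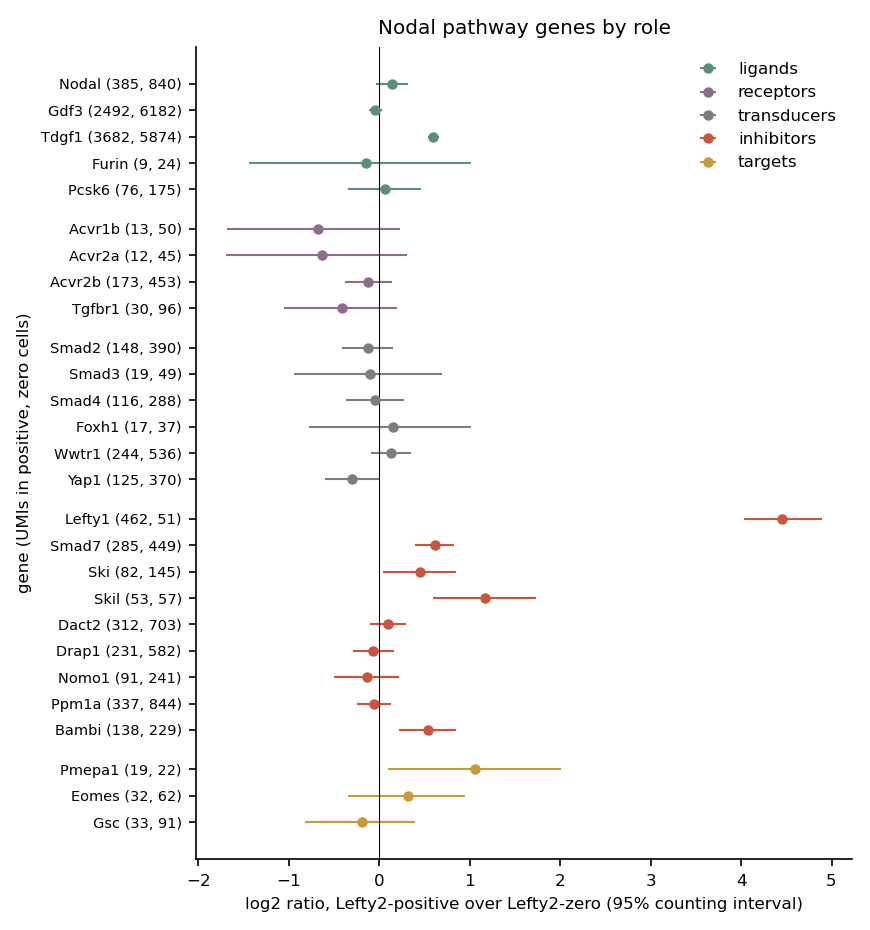
Log2 ratio of positive over zero cells (horizontal axis, bars are 95% counting intervals) for the Nodal pathway genes reported here with at least 20 UMIs, ordered and coloured by role; UMIs in positive and zero cells are given beside each name. Lefty1 (4.45), Skil (1.17), Smad7 (0.61), Tdgf1 (0.60) and Bambi (0.54) lie right of 0, while the receptors and transducers have intervals that reach 0.

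The levels also followed the amount of Lefty2, and not only the split. In cells with 0, 1, 2 to 3, 4 to 7 and 8 or more Lefty2 UMIs (468, 102, 76, 52 and 66 cells), Lefty1 was at 4.64, 11.3, 44.8, 81.0 and 182 CPM. Lefty1 was thus higher in each grade than in the one before it. Pcolce2, described below, was at 22.9, 21.7, 35.8, 58.9 and 68.3 CPM over the same grades.

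Tdgf1 and Trh differed mainly at the low end, and Trh was also somewhat higher at each upper grade in this draw. Tdgf1 was at 534 CPM with 0, 632 CPM with 1 and 782, 772 and 866 CPM in the grades above, which had overlapping intervals. Trh was at 2471 CPM with 0 and 2838 CPM with 1. In the grades above it was at 3829 (3738 to 3921), 4060 (3948 to 4174) and 4281 CPM (4179 to 4385). These intervals did not overlap, but they leave out the spread between cells, which ran from 17 to 206 Trh UMIs in positive cells. Inside the positive side the rho of Trh with Lefty2 was 0.14. Smad7 was at 40.8, 48.0, 48.7, 77.7 and 66.4 CPM, so its difference came from cells with 4 or more Lefty2 UMIs. Nodal stayed between 73.4 and 86.2 CPM over the grades with overlapping intervals.

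Just outside the threshold, the 102 cells with 1 Lefty2 UMI lay between the zero cells and those with 2 or more for each of these genes except Nodal and Pcolce2. Just inside it, the 43 cells with exactly 2 had Lefty1 at 48.5 CPM, Tdgf1 at 813 CPM and Trh at 3711 CPM. The corresponding values with 1 UMI were 11.3, 632 and 2838 CPM.

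**Figure D5:**
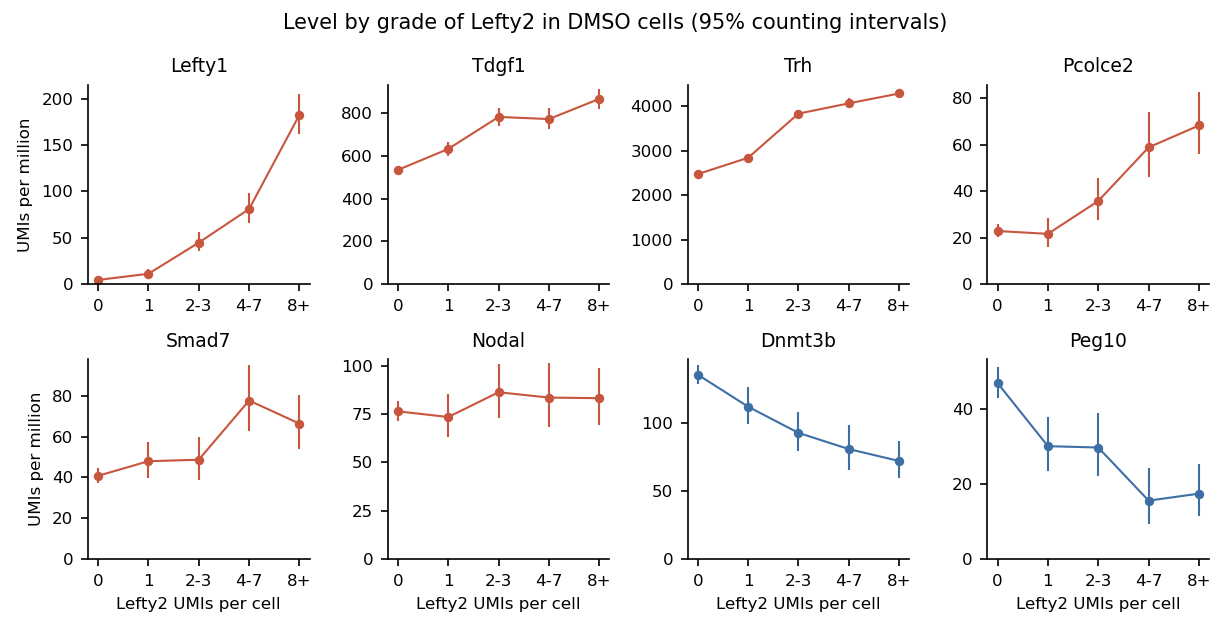
Level of 8 genes in CPM (vertical axes, each from 0, bars are 95% counting intervals) in DMSO cells grouped by their Lefty2 UMIs (horizontal axes). Lefty1 is higher at every grade, up to 182 CPM with 8 or more Lefty2 UMIs, Nodal is level, and Dnmt3b falls from 136 to 72.2 CPM.

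Trh, the precursor of thyrotropin-releasing hormone, had the most UMIs of the 29 higher genes. It was at 4045 CPM in positive and 2471 CPM in zero cells, a log2 ratio of 0.71 (0.68 to 0.74), and its rho with Lefty2 was 0.42, the third highest. A positive cell had a median of 92.5 Trh UMIs (range 17 to 206) and a zero cell a median of 52.5 (range 7 to 282). In positive cells 174 of 194 (89.7%) were above 52.5. Dppa5a, an RNA-binding protein of pluripotent cells, came next with rho = 0.40 and was at 1887 CPM against 1295 CPM (0.54, 0.51 to 0.58). Tdgf1 had rho = 0.35, the fifth highest. Dppa5a and Tdgf1 each have annotated pseudogenes, and how the counting shared reads among such copies was not given.

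Tdgf1 and Trh were only weakly tied to each other within a side, with rho = 0.10 in the positive and 0.26 in the zero cells. With Lefty2, Trh had rho = 0.14 and Tdgf1 rho = 0.11 inside the positive side, where Lefty1 had 0.32 and Pcolce2 0.28.

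The promoters of Tdgf1 and Trh, the abundant genes of this group for which RefSeq promoter sequences (GRCm38.p6) were at hand, are shown because Foxh1 and Smads act by binding DNA. Each runs from 250 bases before to 50 after the gene start, on the minus strand at chr9:110946109-110946408 for Tdgf1 and chr6:92244601-92244900 for Trh. Capitals mark matches, on either strand, to AATNNACA (a Foxh1 motif) and CAGAC (a Smad motif), which do not overlap.
Tdgf1: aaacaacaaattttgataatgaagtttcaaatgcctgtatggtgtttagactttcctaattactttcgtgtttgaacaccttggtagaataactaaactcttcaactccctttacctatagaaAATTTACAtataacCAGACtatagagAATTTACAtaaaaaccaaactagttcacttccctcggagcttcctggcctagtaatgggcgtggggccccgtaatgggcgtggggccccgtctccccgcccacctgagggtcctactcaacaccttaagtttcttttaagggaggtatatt
Trh: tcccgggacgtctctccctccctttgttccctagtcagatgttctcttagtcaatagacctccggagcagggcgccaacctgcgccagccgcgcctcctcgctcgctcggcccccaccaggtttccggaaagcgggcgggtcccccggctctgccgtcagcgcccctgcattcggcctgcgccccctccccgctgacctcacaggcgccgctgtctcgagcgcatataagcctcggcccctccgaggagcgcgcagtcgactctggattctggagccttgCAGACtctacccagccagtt
The Tdgf1 window held 2 matches to the Foxh1 motif and 1 to the Smad motif, and the Trh window held 0 and 1. The windows of Nodal and Pcolce2, also searched, held 0 of either. Of all 32851 promoter windows, 12.2% held the Foxh1 motif and 49.6% the Smad motif. Such matches are descriptions of letters, not binding sites.

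Several genes for secreted or surface proteins were among the 15 highest. Pcolce2, an enhancer of procollagen processing, was at 53.1 CPM against 22.9 CPM (1.21, 0.95 to 1.47), with a UMI in 59.3% of positive and 32.9% of zero cells. Igfbp2, a binding protein of insulin-like growth factors, was at 122 CPM against 65.2 CPM (0.90, 0.74 to 1.06). Sfrp1, a secreted Wnt antagonist, was at 94.5 CPM against 56.9 CPM (0.73), and Fxyd6, a regulator of the sodium pump, at 173 CPM against 101 CPM (0.78). Aplp1, a relative of the amyloid precursor protein, was at 36.9 CPM against 18.7 CPM (0.98). Pcolce2 overlaps annotated genes on the other strand, as do Smarcd3, Plekha2, Dusp1 and Dnmt3b below, and whether the counting used strand was not given.

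Others of the 15 highest were intracellular. Krt42, a keratin gene, was at 40.1 CPM against 19.9 CPM (1.01, 0.72 to 1.30). Smarcd3, a subunit of BAF chromatin remodellers, was at 0.73 log2, and Plekha2, a phosphoinositide-binding adaptor, at 0.69. Dusp1, a phosphatase of MAP kinases, was at 0.68, Ap3b2, a vesicle adaptor subunit, at 0.65 and Nupr1, a stress-induced chromatin protein, at 0.62. Ap3b2 and Nupr1 were not among the 16 genes that passed the rule in every set of counts.

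The lower genes were mostly of low to moderate level. Peg10, a retrotransposon-derived imprinted gene, was at 21.7 CPM in positive and 46.8 CPM in zero cells, a log2 ratio of -1.11 (-1.43 to -0.80). A Peg10 UMI was present in 33.0% of positive and 47.4% of zero cells. Anxa3, an annexin, was at 21.1 CPM against 45.1 CPM (-1.10), and Bhmt, which remethylates homocysteine, at 25.9 CPM against 50.1 CPM (-0.95). Plk2, a polo-like kinase and p53 target, was at 29.0 CPM against 55.2 CPM (-0.93, -1.21 to -0.66), and -1.31 in the left-out UMIs. Ddah1, which breaks down methylated arginine, was at 56.2 CPM against 103 CPM (-0.88). All 5 also passed the rule in the left-out UMIs and both other draws.

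Fst (follistatin), which binds and blocks activin, was lower in the positive cells, unlike Lefty1, Smad7 and Bambi. It was at 18.0 CPM against 33.0 CPM (-0.88, -1.24 to -0.53), with a UMI in 29.9% of positive and 42.1% of zero cells, and its ratio in the left-out UMIs was -0.62 (-0.91 to -0.33). Fst was named as 1 of the 15 lowest genes and was not on the Nodal lists. The other 9 of the 15 were 2900011O08Rik, Vgll3, Ermard, Gsto1, Lurap1l, Mcc, D630023F18Rik, Wls and Naprt, between -0.92 and -0.83. Of these, 2900011O08Rik, Vgll3 and Naprt passed the rule in every set of counts.

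Dnmt3b, a de novo DNA methyltransferase, had the lowest rho with Lefty2 (-0.27) of 7453 genes. It was at 82.7 CPM against 136 CPM (-0.72, -0.88 to -0.55). Over the grades 0, 1, 2 to 3, 4 to 7 and 8 or more it was at 136, 112, 92.9, 81.0 and 72.2 CPM. The upper grades had overlapping intervals (79.3 to 108, 65.8 to 98.6 and 59.5 to 86.9), and rho inside the positive side was -0.15. The size of the Dnmt3b difference depended on the counts used, since the ratio was -0.51 and -0.43 in the other draws. In the left-out UMIs it was -0.37 (-0.51 to -0.23). The 4 next lowest in rho were Asns (asparagine synthetase, -0.27), Ptgr1 (-0.23), Ckap2 (-0.22) and Lamp1 (-0.22). Asns is abundant, at 1422 CPM against 1776 CPM, a log2 ratio of -0.32 (-0.36 to -0.28).

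The medians of the pluripotency lists lay near 0. The 20 naive pluripotency genes had a median log2 ratio of -0.01. Of the 16 with at least 200 UMIs, Fgfbp1 (-0.53) was counted as lower and none as higher. The 14 general pluripotency genes had a median of -0.03, with Tdgf1 and Dppa5a higher. The 10 formative or primed genes with at least 50 UMIs had a median of -0.01. Of the 4 with at least 200 UMIs, Dnmt3b and Etv4 (-0.54) were counted as lower. Fgfbp1, Dnmt3b and Etv4 were not among the genes that passed the rule in every set of counts. Of all 7000 genes, 1% were lower and 0.414% higher. These medians stand beside -0.02 for all genes. With the UMIs of all members of a list summed, the log2 ratio was 0.20 (0.18 to 0.22) for general pluripotency genes. The sum was at -0.35 (-0.43 to -0.27) for formative or primed genes and at -0.01 (-0.04 to 0.01) for naive genes. Such sums weigh abundant members most. The general sum was 7394 CPM against 6445 CPM, and most of that difference lay in Dppa5a (1887 against 1295) and Tdgf1 (808 against 534). The formative sum was 363 CPM against 463 CPM, with Dnmt3b at 82.7 against 136. Dnmt3l was at 220 CPM in zero cells and at 190, 201 and 160 CPM in the grades of 2 to 3, 4 to 7 and 8 or more Lefty2 UMIs.

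Signalling lists other than Nodal lay slightly below 0. The medians were -0.18 for 14 Wnt pathway genes, -0.19 for 12 FGF-ERK genes and -0.22 for 8 BMP genes with at least 50 UMIs. With members under 200 UMIs included, the ratios ranged from -0.96 to 0.37, from -0.57 to 0.97 and from -0.45 to 0.63. By the counting rule, which asks for 200 UMIs and separate intervals, Sp5 was counted as lower, of 8 Wnt genes with 200 UMIs. Sp5, a direct Wnt target, was at 132 CPM against 188 CPM (-0.51), and Axin2, a feedback inhibitor of Wnt, was at -0.38 (-0.66 to -0.11). By the same rule Etv4 was counted as lower, of 7 such FGF-ERK genes, and no gene of these lists was counted as higher. Neither Sp5 nor Etv4 was among the genes that passed the rule in every set of counts. In the BMP list Bmp4 was at -0.40 (-0.60 to -0.20) and its target Id3 at -0.33 (-0.50 to -0.17), both under the 0.5 of the count.

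Among p53 targets, 18 had at least 50 UMIs with a median of -0.27. Of the 14 with at least 200 UMIs, Plk2, Perp (-0.83) and Btg2 (-0.66) were counted as lower and none as higher. Perp and Btg2, unlike Plk2, were not among the genes that passed the rule in every set of counts. Perp was uneven over the grades of Lefty2, at 23.7, 24.6, 7.84, 31.9 and 5.16 CPM. Of all 7000 genes, 1% were lower. Ccng1 was at -0.46 (-0.59 to -0.34). The 14 imprinted genes with at least 50 UMIs had a median of -0.22. Of the 12 with at least 200 UMIs, Peg10, its neighbour Sgce (-0.67) and Peg3 (-0.57) were lower, beside the same 1% of all genes. The ratio of Peg3 was 0.03 in the left-out UMIs and 0.07 with seed 3, so it did not hold. The 15 glycolysis genes had a median of 0.16, with Pfkp higher (0.50) and Tpi1 at 0.39 (0.33 to 0.45). Pfkp was not among the genes that passed the rule in every set of counts.

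The sides differed somewhat in cell cycle phase, with overlapping intervals. Phase calls from S and G2/M gene lists put 71.1% (64.2 to 77.4) of positive and 62.6% (58.0 to 67.0) of zero cells in S. In G2/M were 28.4% (22.1 to 35.2) of positive and 37.2% (32.8 to 41.7) of zero cells, and 1 cell of each side was in G1. The 54 G2/M genes had a median ratio of -0.14, with Ckap2 (-0.54), a spindle protein, the only one past 0.5. In the left-out UMIs Ckap2 was at -0.35 (-0.48 to -0.22). The 42 S phase genes had a median of 0.02. Malat1, a nuclear-retained RNA, was at -0.27, and nuclear-retained RNAs took a median of 0.283% of UMIs in positive and 0.328% in zero cells.

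Most leading differences were present within each phase and depth. In S cells alone (138 positive, 293 zero) the log2 ratios were 4.24 for Lefty1, 0.58 for Tdgf1, 0.65 for Trh, -0.99 for Peg10 and -0.69 for Dnmt3b. In G2/M cells alone (55 and 174) they were 4.97, 0.65, 0.84, -1.42 and -0.80. In the cells below the median depth (85 and 258) they were 4.35, 0.59, 0.74, -1.16 and -0.50, and in those at or above it (109 and 210) 4.58, 0.60, 0.66, -1.05 and -0.90. Among the other Nodal genes, Smad7 in G2/M cells had an interval that reached 0 (0.43, -0.00 to 0.85), as did Skil there (0.92, -0.24 to 2.03). Bambi was at 0.15 (-0.38 to 0.65) below the median depth and at 0.76 (0.34 to 1.17) at or above it.

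The same rule was applied to the Idoxuridine library, which the choice of cells did not use and which is another treatment, not a replicate. It had 648 cells deep enough to thin, of which 40 (6.17%, 4.45 to 8.31) were Lefty2-positive and 563 (86.9%) had 0 Lefty2 UMIs. The positive share in DMSO was 25.4%. With 40 cells on the positive side the counts there are small.

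Within that library Lefty1 was again higher in positive cells, with 42 UMIs in positive and 80 in zero cells, a log2 ratio of 2.89 (2.31 to 3.44). With seeds 2 and 3 the value was 3.95 and 4.34. Tdgf1 was at 0.66 (0.53 to 0.79), Smad7 at 0.62 (0.18 to 1.03), Dppa5a at 0.58 (0.50 to 0.66) and Fxyd6 at 0.80 (0.57 to 1.03), all close to their DMSO values. Krt42 was at 2.02 (1.53 to 2.48) and Trh at 0.33 (0.25 to 0.41), where their DMSO values were 1.01 and 0.71. Draws from the same cells could differ by more than such intervals, as Lefty1 did with seed 3 (3.81 to 4.88). The values of Krt42 and Trh are therefore not read as a difference between treatments. Nodal was at 0.04 (-0.32 to 0.38). Of the receptors, Acvr2b (-0.73, -1.45 to -0.08) and Tgfbr1 (-2.15, -5.21 to -0.27) had intervals below 0. Acvr1b (1.01, 0.04 to 1.85) lay above 0. These receptors had 20, 2 and 13 UMIs in positive cells.

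Several other genes that differed in DMSO had ratios with intervals across 0 there. Aplp1 was at -0.38 (-1.15 to 0.30), Anxa3 at 0.28 (-0.15 to 0.69), Bhmt at 0.13 (-0.15 to 0.39), Peg10 at -0.24 (-0.61 to 0.11) and Dnmt3b at -0.10 (-0.38 to 0.17). Among the Nodal inhibitors, Bambi was at 0.16 (-0.28 to 0.57) and Skil at 0.02 (-0.88 to 0.80). Plk2 was at -0.95 (-1.43 to -0.52), near its DMSO value. Of the 29 genes higher in DMSO, 24 (82.8%) had a positive ratio in the Idoxuridine library, where 48.7% of all 7000 genes did. Of the 70 lower genes, 49 (70%) had a ratio below 0. With 1 library per treatment, whether a difference between the sides itself differed between treatments was not tested.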

How the data were processed

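The authors deposited raw UMI counts as whole numbers, a matrix of 27998 genes by cells, without normalization. Per the submitters' processing notes, Cell Ranger 2, Seurat and mm10 were used, with no role stated. How barcodes were called cells, the annotation and the use of strand are not given in the sources used here. Every barcode was kept, and no doublet caller was run.

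Cells were thinned without replacement to 23500 UMIs (numpy 2.4.6, seed 1) and UMIs were summed per side. CPM have exact Poisson, log2 ratios exact conditional binomial and shares Clopper-Pearson 95% intervals (scipy 1.17.1), for counting error only. Ratios were tested on simulated data, in which the cells of a side differed by counting alone and were not chosen by a gene. That test therefore cannot show whether the intervals hold for these cells. Phases came from scanpy 1.11.5. List medians use members with at least 50 UMIs.

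Of 462 listed genes in 29 lists, 5 were not in the table. Named were the Nodal genes, the 15 highest and 15 lowest ratios, the 5 highest and 5 lowest rho, up to 4 members of each other list, stem cell markers and adjacent genes; some of these are not reported here. The members, lists and rules were chosen with earlier results of these data known. Alternatives were other seeds, depths, Lefty2 thresholds, UMI sets, filters, phases, scalings (TMM from edgeR 4.0.16, median of ratios from DESeq2 1.42.0) and cell subsets.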

Additional observations from a re-analysis of the deposited data

How the results depend on the processing

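The 18 alternatives left Lefty1 between 3.92 (positive from 1 Lefty2 UMI) and 4.97 (G2/M cells), Tdgf1 between 0.48 and 0.66 and Trh between 0.55 and 0.84. Counts of higher and lower genes moved more. They were 18 and 45 with positive from 1 UMI, 55 and 113 with all UMIs of the same cells, 57 and 106 at a minimum of 50 UMIs, 14 and 24 at a minimum of 500, and 19 and 40 in G2/M cells. Lower genes numbered 45 below and 38 at or above the median depth. The cause was not tested, except that other minimums change the number of genes counted. The Nodal median was 0.065 at 30000 UMIs, 0.10 at a minimum of 500 UMIs and 0.17 in G2/M cells, and near 0 otherwise. Lefty2 in the left-out UMIs was at 4.37 with seed 2. Lefty1 in the Idoxuridine library was at 3.95 and 4.34 with seeds 2 and 3. Of 756 values of the 42 counted genes that are named, 754 kept their direction. The exceptions were Peg3 with seed 3 (0.067) and in the left-out UMIs (0.031). Part of this count was fixed in advance. Other UMI minimums leave a ratio unchanged, and the scalings shift all ratios alike by little (Lefty1 from 4.45 to 4.47). Most other alternatives reuse the same cells. G1 cells alone (1 per side) were not run. No paired analysis was possible because each treatment has 1 library. At this depth a single UMI is the smallest level seen in a cell, so genes such as Skil and Pmepa1 rest on few UMIs. The interval of any ratio leaves out the spread between cells and between cultures. Draws from the same cells could differ by more than such an interval. Trh was at 0.71 (0.68 to 0.74) in the first draw and at 0.64 (0.62 to 0.67) with seed 2.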

Other observations

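Heat shock and cholesterol synthesis genes differed little between the sides. The 10 heat shock chaperones with at least 50 UMIs had a median of 0.00 and a range of -0.33 (Hsph1) to 0.09. For cholesterol synthesis the median over 15 genes was 0.09, and Dhcr7, which makes the last step to cholesterol, was at 0.34 (0.15 to 0.52). In the glycolysis list Ldha, lactate dehydrogenase, was at 0.25 (0.19 to 0.31) and Pfkl at 0.26 (0.07 to 0.44). At 0.25 log2, 4 of the 15 glycolysis genes were counted as higher and 0 as lower. The shares over all 7000 genes were 1.43% and 3.07%. Among the 7 immediate early genes with at least 200 UMIs, Dusp1 (0.68) was higher and Btg2 (-0.66) lower, while Jund was at 0.22 and Junb at -0.28.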
